A study of Mus musculus with 8 samples.

Results

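Pramel6, Pramel7, Gm13128, Pramef25, Gm13040 and Gm13057 are 6 mouse genes of the PRAME family, and their RNA was followed in N33 ESCs across 4 culture conditions. The 6 genes were taken by symbol from the 20278 genes with reads in at least 1 sample, and they were selected on measured values, since their levels in these samples were known when they were named. Their own levels and fold changes are therefore given as a description without a test. All 6 passed the filter of at least 10 expected counts in at least 2 samples, which 15287 genes passed. The deposited tables also held 26 other PRAME family genes, found by symbol, gene ID or gene description, of which 12 passed the filter.

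N33 is an ESC line from C57BL/6 mice, and poly-A RNA was sequenced from biological duplicates of each condition. All cultures received LIF at 1000 U/ml. In the −F condition ESCs grew in serum on gelatin without feeders, and in the F condition they grew in serum on mouse embryonic fibroblasts whose division had been stopped with mitomycin C. The F2i condition added the 2i inhibitors to serum and feeders, where 2i stands for the Gsk3β inhibitor CHIR99021 and the Mek inhibitor PD0325901. The NB2i condition had N2B27 medium with CHIR99021 at 3 µM and PD0325901 at 1 µM, on poly-L-ornithine and laminin, with neither serum nor feeders. The doses of 2i are given by the labels for NB2i. Serum media held 20% FBS. Cells grown with feeders went through a pair of adherence steps meant to remove the feeders before lysis. The conditions address what feeders add in serum (F against −F), what 2i adds on feeders (F2i against F), and what changes when serum and feeders are taken away from 2i cultures (NB2i against F2i). NB2i against −F sets the 2 cultures without feeders side by side, and these 2 differ in serum, 2i, medium and coating together. The comparisons share samples, so that a sample of any condition that is high or low moves 2 of them. All cells come from 1 line, and the number of cells in each library was not given in the sources used here.

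PRAME family proteins are built of leucine-rich repeats, and human PRAME serves as the substrate-binding subunit of a ubiquitin ligase built on the scaffold protein CUL2. Most mouse members lie in tandem arrays of young gene copies and are known from germ cells, oocytes and early embryos. Pramel7 is known from the inner cell mass and from naive ESCs, where its protein brings the CUL2 ligase to UHRF1, the factor that guides maintenance of DNA methylation by DNMT1. Pramel6 is its close relative and neighbour. Pramef25 and several of the copies on chromosome 4 are counted among the genes of the 2C-like state, a rare and passing state of ESC cultures marked by Zscan4 and resembling the 2-cell embryo.

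Expected counts are RSEM's estimates of reads per gene, and FPKM divides them by transcript length and depth. Libraries held 20129641 to 20664488 expected counts, so 1 count is worth nearly the same in every sample. Genes at 0 in a sample are left out of its table and were read here as 0. Folds are ratios of mean normalised counts, and log2 differences with an SE are edgeR's estimates, which depart a little from those ratios where counts are low. Of the 14 markers of feeder fibroblasts, summed FPKM was 120.9 to 127.5 in −F, 505.7 to 525.2 in F, 1019 to 1042 in F2i and 396.2 to 418.5 in NB2i, and most of the NB2i sum came from Fn1 and Vim. Of the 8 ESC markers, summed FPKM lay between 4078 and 4490 in all 8 samples.

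Pramel7 lies on chromosome 2 (GRCm38, 87489088 to 87492418) beside Pramel6 (87506565 to 87510865). The other members lie on chromosome 4, in a stretch from 143394441 to 144408467 that holds 20 of the 32 family genes. In it Gm13040 (143535954 to 143542471) and Gm13057 (143551700 to 143558236) are neighbours, followed by Pramef25 (143948183 to 143951016, Pramel16 in RefSeq) and Gm13128 (144330249 to 144333465, Pramel30 in RefSeq). All 6 genes are annotated as protein coding.

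The promoters of Pramel7, Gm13128 and Gm13040 are shown because Pramel7 and Gm13128, on different chromosomes, had promoters that were alike, as did Gm13040 and the copies next to it. Each sequence runs 5′ to 3′ on the gene's strand over 300 bases around the RefSeq start in GRCm38.p6, and was taken from the RefSeq promoter table, which matched 6 of 6 members and 27 of the 32 family genes. Those of Pramel7 (chr2:87492369-87492668, minus strand) and Gm13128 (chr4:144329999-144330298, plus strand) have in capitals the runs of at least 10 bases that both hold, 98 bases in each. That of Gm13040 (chr4:143535704-143536003, plus strand) has in capitals the runs of at least 10 bases shared with Gm13043, 230 bases.
Pramel7: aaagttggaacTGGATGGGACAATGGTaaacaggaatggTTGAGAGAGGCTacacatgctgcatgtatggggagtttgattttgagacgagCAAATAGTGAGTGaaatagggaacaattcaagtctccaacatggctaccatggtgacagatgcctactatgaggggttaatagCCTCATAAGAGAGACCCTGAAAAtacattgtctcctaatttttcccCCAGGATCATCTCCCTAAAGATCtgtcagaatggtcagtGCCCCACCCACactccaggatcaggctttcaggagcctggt
Gm13128: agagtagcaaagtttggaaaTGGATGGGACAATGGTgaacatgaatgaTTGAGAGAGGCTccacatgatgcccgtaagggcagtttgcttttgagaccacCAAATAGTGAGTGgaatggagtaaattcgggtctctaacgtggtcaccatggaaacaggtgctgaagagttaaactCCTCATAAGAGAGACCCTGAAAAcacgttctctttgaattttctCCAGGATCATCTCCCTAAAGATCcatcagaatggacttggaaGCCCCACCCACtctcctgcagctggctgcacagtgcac
Gm13040: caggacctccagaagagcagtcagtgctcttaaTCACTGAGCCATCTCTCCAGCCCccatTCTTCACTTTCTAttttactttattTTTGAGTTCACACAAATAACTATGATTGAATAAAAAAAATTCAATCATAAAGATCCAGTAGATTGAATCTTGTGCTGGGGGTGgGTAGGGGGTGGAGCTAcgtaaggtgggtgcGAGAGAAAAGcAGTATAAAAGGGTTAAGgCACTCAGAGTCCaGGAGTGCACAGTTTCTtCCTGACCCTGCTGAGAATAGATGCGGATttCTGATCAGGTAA

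Pramel7 and Gm13128 had 228 identical bases in a local alignment of 277, or 82.3%. Against the 32850 other promoters of the table, that of Pramel7 reached an alignment score of 60 with 2, those of Gm13128 and of its near copy Pramef17. Pramel6 lies next to Pramel7, yet the best local alignment of their promoters spanned 37 bases, and that of Pramef25 with Gm13040 spanned 23. The promoters of Gm13040 and Gm13057 were identical in 300 of 300 bases, and that of Gm13043 had 252 identical bases of 267 aligned, or 94.4%. The letters TTCNNNGAA, a form of the STAT site searched on both strands, stood in 8.3% of 32851 promoters of this length and in 0 of the 27 family promoters. The letters TGCACAC, a ZSCAN4 motif, stood in 4.4% of all and likewise in 0 of the 27. The absence says only that these letters do not stand in these windows.

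How far reads of 50 bases can tell the genes apart decides which values can be read singly. None of the 1491 windows of 50 bases in the Pramel6 transcript occurs in another gene of the GENCODE M21 transcripts, and 0.442% of those in Pramel7 do. For these 2 genes expected counts were whole in all 8 samples. In contrast, 99.9% of the windows of Gm13040 and 100% of those of Gm13057 occur in other genes. Gm13040 shares 99.5% of its windows with Gm13057 and 97% with Gm13043, the next copy in the array (143511343 to 143517831), and 49.2% with BC080695. Pramef25 shares 63.5% of its windows with other genes, and Gm13128 shares 73.8%, all of them with Pramef17 (143991127 to 143994369). RSEM divides such shared reads by estimate, so values of Gm13040, Gm13057 and Gm13128 are also given as sums over near-identical copies. Pramef25 shares at most 34.1% of its windows with any single gene and enters no sum, so its values depend on the division.

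Gm13128 and Pramef17 differ at 12 of 1745 compared bases. A window of 50 transcript bases that holds 3 of them, from 1340 to 1389, is printed as an example of where a read can be assigned. It lies at chr4:144333060-144333109 on the plus strand for Gm13128 and at chr4:143991483-143991532 on the minus strand for Pramef17. Capitals mark the 3 differing bases, T8C, T35C and G43A, counted from 1 at the 5′ end of the window, with the base of Gm13128 first.
Gm13128: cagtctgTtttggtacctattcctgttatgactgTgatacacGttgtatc
Pramef17: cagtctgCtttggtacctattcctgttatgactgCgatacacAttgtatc

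Pramel6, Pramel7 and Gm13128 were near 0 in both serum conditions without 2i and were measured in both conditions with 2i. Pramef25, Gm13040 and Gm13057 were measured in F and F2i, near 0 in −F and at 0 in NB2i. In RNA from whole cultures, more cells of a kind and more RNA per cell cannot be told apart.

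**Figure D1:**
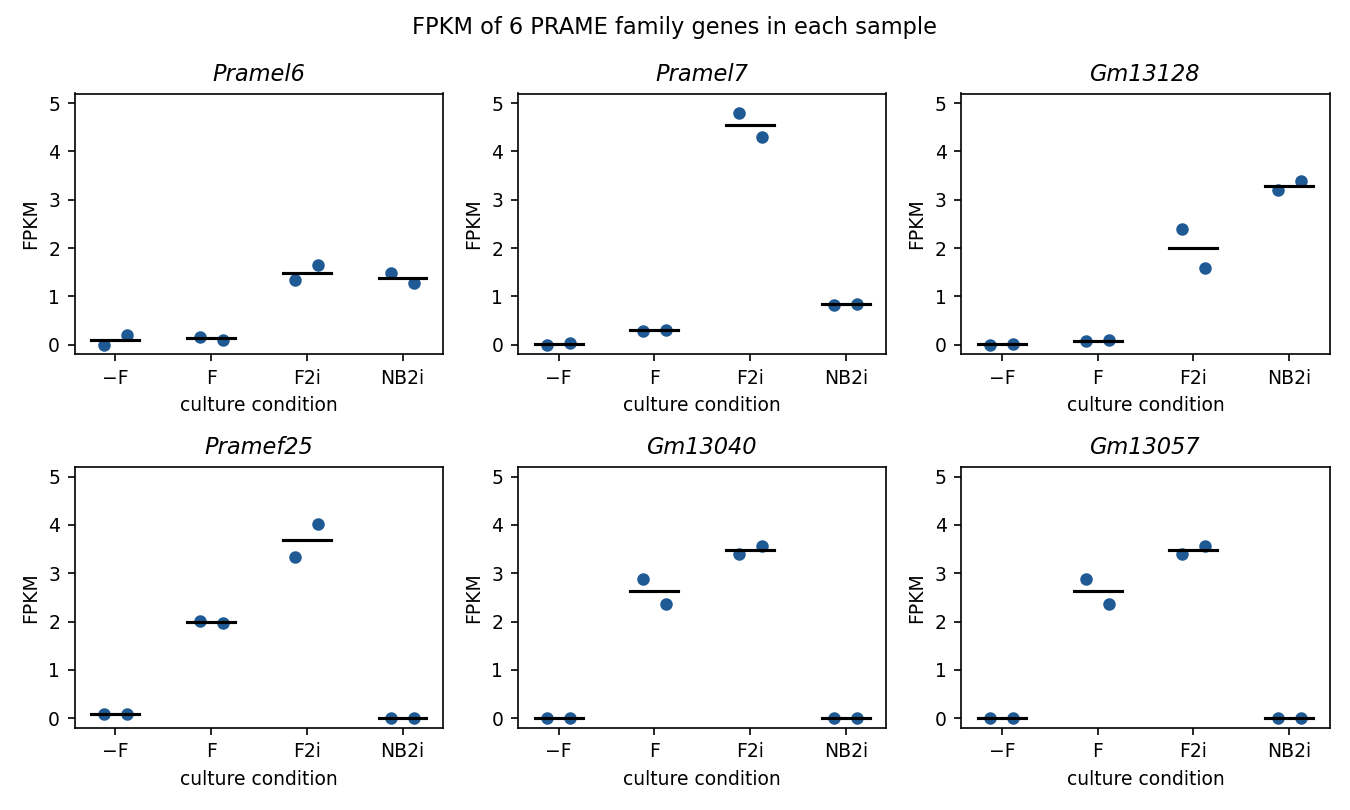
FPKM of the 6 genes (y axis, linear, from 0) in each of the 8 samples by culture condition (x axis), with points for samples and bars for the mean of 2. Pramel7 sits at 4.29 and 4.79 in F2i and at 0.84 or below in every other sample, while Gm13128 is highest in NB2i, at 3.2 and 3.39, and Pramef25, Gm13040 and Gm13057 are at 0 there.

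Pramel7, the adaptor that brings UHRF1 to the CUL2 ligase, had 0 and 1 counts in −F, 11 and 12 in F, 179 and 162 in F2i and 32 and 32 in NB2i. In FPKM this was 0.015 ± 0.021 (SD, n = 2 here and below), 0.3 ± 0.014, 4.54 ± 0.354 and 0.835 ± 0.0071. The 4 conditions did not overlap, in the order −F, F, NB2i, F2i. With 2i on feeders the level was 15.3-fold that of F, a log2 difference of 3.93 (SE 0.23). Without serum and feeders it fell by 2.43 on the log2 scale (SE 0.18) from F2i, or 5.4-fold. Both conditions with 2i lay above both without it. NB2i held 66.5 times the level of −F, with an exact 95% interval of 11.5 to 2669 that covers counting error only and is wide because −F gave 1 read in all. F against −F gave a ratio of 23.4 (3.8 to 964) with the same single read below it. Without −F replicate 2, which held that read, these were bounds of 3.47 and 1.97 on the log2 scale.

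Pramel6, its neighbour on chromosome 2, had 0 and 6 counts in −F, 5 and 3 in F, 41 and 51 in F2i and 47 and 40 in NB2i. Its FPKM was 0.095 ± 0.13, 0.13 ± 0.042, 1.49 ± 0.219 and 1.38 ± 0.156 in that order. The 2 conditions without 2i overlapped, the 2 conditions with 2i overlapped, and the pairs did not overlap each other. F2i was above F by 3.53 on the log2 scale (SE 0.46), and NB2i was above −F by 3.86 (SE 0.50). The latter was 2.88 without −F replicate 1, while without −F replicate 2 no reads of Pramel6 were left in −F and the fitted 8.46 depends on the prior count. NB2i and F2i differed by −0.10 (SE 0.28) and F and −F by 0.43 (SE 0.85), and the sign of each of these small differences turned when 1 library was left out. Thus the levels of Pramel6 in NB2i and F2i overlapped, whereas Pramel7 next to it was 5.4-fold lower in NB2i. The difference between the 2 genes was not tested.

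Gm13128 had 0 and 0.5 counts in −F, 2.5 and 3.33 in F, 83.95 and 56.34 in F2i and 115 and 121 in NB2i. Its FPKM was 0.005 ± 0.0071, 0.08 ± 0.014, 2 ± 0.573 and 3.3 ± 0.134. No 2 conditions overlapped and NB2i was highest, a place that no other member held. Both serum conditions without 2i lay at about the floor of 3 counts per library, so no fold is given between them. F2i was above F by 4.79 on the log2 scale (SE 0.41), a size that rests on about 3 counts per library in F. NB2i lay a further 0.73 (SE 0.19) above F2i, and NB2i was at least 40.9-fold higher than −F.

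The sum of Gm13128 and its near copy Pramef17 removes most of the uncertainty of the split, since it came out whole in every sample. It was 0 and 1 counts in −F, 5 and 10 in F, 91 and 78 in F2i and 115 and 121 in NB2i. F2i was 11.7-fold above F (log2 3.52, SE 0.30), less than for Gm13128 alone, and NB2i was above F2i by 0.46 (SE 0.17), or 1.38-fold. NB2i against −F was a ratio of 245 (exact 95% interval 43.6 to 9732). In NB2i the estimate gave every read to Gm13128 and 0 to Pramef17. Of the 2i conditions, NB2i was thus the higher for Gm13128 and the lower for Pramel7, whose promoter is shown beside that of Gm13128 above.

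These 3 genes were measured in NB2i, where 4 of the 14 fibroblast markers, Postn, Vcam1, Lum and Dcn, stood at 0 in both samples. The 4 are named for that value, and others of the 14 were measured in NB2i. Among those were Fn1 at 357.87 and 334.22 FPKM and Vim at 58.38 and 60.18. In F2i the same 4 markers summed to 62.27 and 58.98 FPKM. Their part in the F2i levels was not tested.

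Pramef25 had 3.42 and 3.25 counts in −F, 84.77 and 84.76 in F, 139.98 and 170.31 in F2i and 0 in both NB2i samples. Its FPKM was 0.08 in both −F samples, 2 ± 0.021 in F, 3.68 ± 0.481 in F2i and 0 in NB2i, and no conditions overlapped. F was above −F by 4.79 on the log2 scale (SE 0.34), over a −F level near the floor of 3 counts per library. F2i was 1.89-fold above F (log2 0.92, SE 0.16). NB2i was at least 52.4-fold lower than F2i and at least 1.07-fold lower than −F, where the level was itself near the floor.

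Gm13040 and Gm13057 had the same value as each other in every sample. Each was at 0 in both −F and both NB2i samples, at 122.72 and 102.43 counts in F and at 144.14 and 152.72 in F2i. In FPKM each was 2.63 ± 0.361 in F and 3.48 ± 0.113 in F2i, without overlap. Their F2i level was 1.36-fold that of F (log2 0.45, SE 0.15).

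The third copy, Gm13043, had the reads in −F that the other two lacked, 20.59 and 14.01 counts, then 0 and 33.21 in F, 169.3 and 191.95 in F2i and 0 in NB2i. In F replicate 1 it was at 0 while Gm13040 and Gm13057 were at their highest for that condition. Since the 3 copies share 97 to 100% of their windows, the 0 of Gm13040 and Gm13057 in −F does not show that these copies gave no reads. The bound it gives, at least 38.2-fold for F over −F, is not a bound for the 3 copies together.

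Summed over Gm13040, Gm13057 and Gm13043, counts were 20.59 and 14.01 in −F, 245.44 and 238.07 in F, 457.58 and 497.39 in F2i and 0 in both NB2i samples. F was 14.2-fold above −F, a log2 difference of 3.80 (SE 0.17), and F2i was 2.04-fold above F, a log2 difference of 1.03 (SE 0.091). NB2i was at least 161-fold lower than F2i and at least 5.55-fold lower than −F. Replicates of the sum differed less than those of the single copies in F, and the step from F to F2i was larger than for Gm13040 alone.

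With BC080695 added, a gene that holds 50.2% of the windows of Gm13043, the sum was 26.43 and 19.8 in −F, 336.56 and 317.85 in F, 640.74 and 684.86 in F2i and 0 in NB2i. F was 14.4-fold above −F (log2 3.85, SE 0.15) and F2i was above F by 1.07 (SE 0.079). NB2i was at least 224-fold lower than F2i. The folds with and without BC080695 thus lay close together. These 4 genes held 14.8 to 15.3% of all PRAME family counts in F, 20 to 21.6% in F2i and 1.39 to 2.03% in −F.

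**Figure D2:**
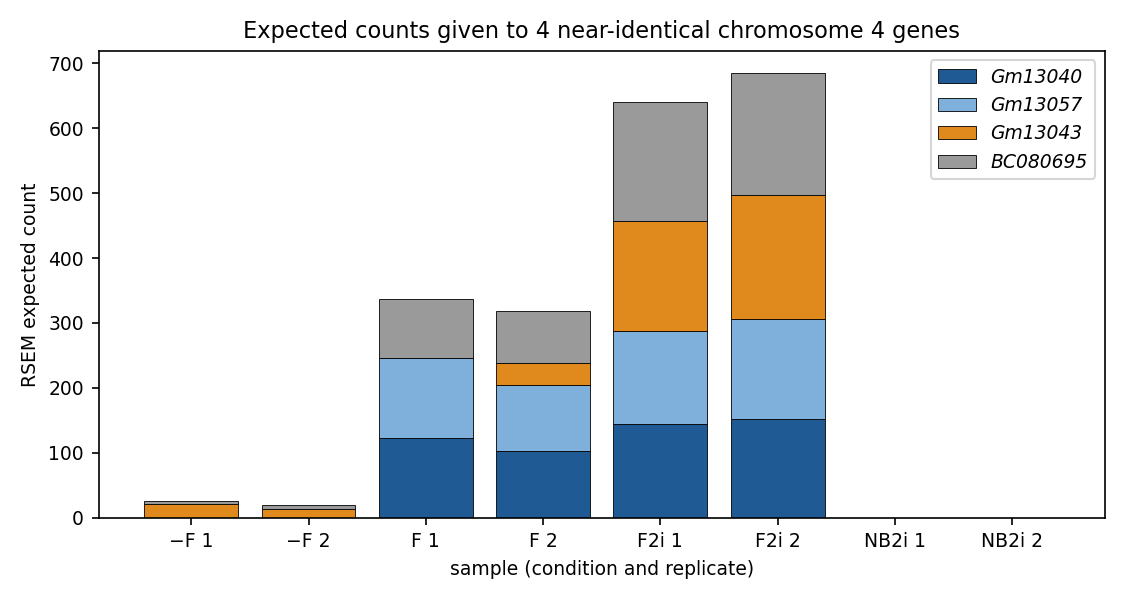
Expected counts given by RSEM to Gm13040, Gm13057, Gm13043 and BC080695 (y axis, linear, stacked bars from 0) in each of the 8 samples (x axis). Gm13040 and Gm13057 take equal parts in every sample, Gm13043 has all counts of the 3 copies in −F and 0 in F replicate 1, and the whole stack is 317.85 to 336.56 in F, 640.74 to 684.86 in F2i and 0 in NB2i.

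The Zscan4 genes and some fibroblast genes were likewise highest in F2i, next in F and low in −F and NB2i. The 5 listed Zscan4 genes, markers of the 2C-like state, summed to 55 and 44 counts in −F, 1154 and 1208 in F, 2854 and 2851 in F2i and 5 and 1 in NB2i. The fibroblast markers at 0 in NB2i (Postn, Vcam1, Lum and Dcn, picked by that value) summed to 0.25 and 0.11 FPKM in −F, 24.01 and 24.7 in F, 62.27 and 58.98 in F2i and 0 in NB2i. Postn carried most of this sum and of its step from F to F2i, and Vcam1 and Dcn overlapped between F and F2i. Over all 14 markers the median log2 difference of F2i from F was 0.63. Others of the 14 markers had another order, among them Fn1, with 98.62 and 95.84 FPKM in −F and 357.87 and 334.22 in NB2i. As a percent of its F2i mean, F was at 53.8 to 54.6 for Pramef25, 48.9 to 51 for the sum of the 3 copies, 40.7 to 41.7 for the Zscan4 genes and 39.6 to 40.7 for the 4 markers. The part of either in the levels of Pramef25 and the copies was not tested, and with feeders present in both F and F2i and absent from the others, RNA of ESCs and RNA of feeders cannot be told apart by condition alone.

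**Figure D3:**
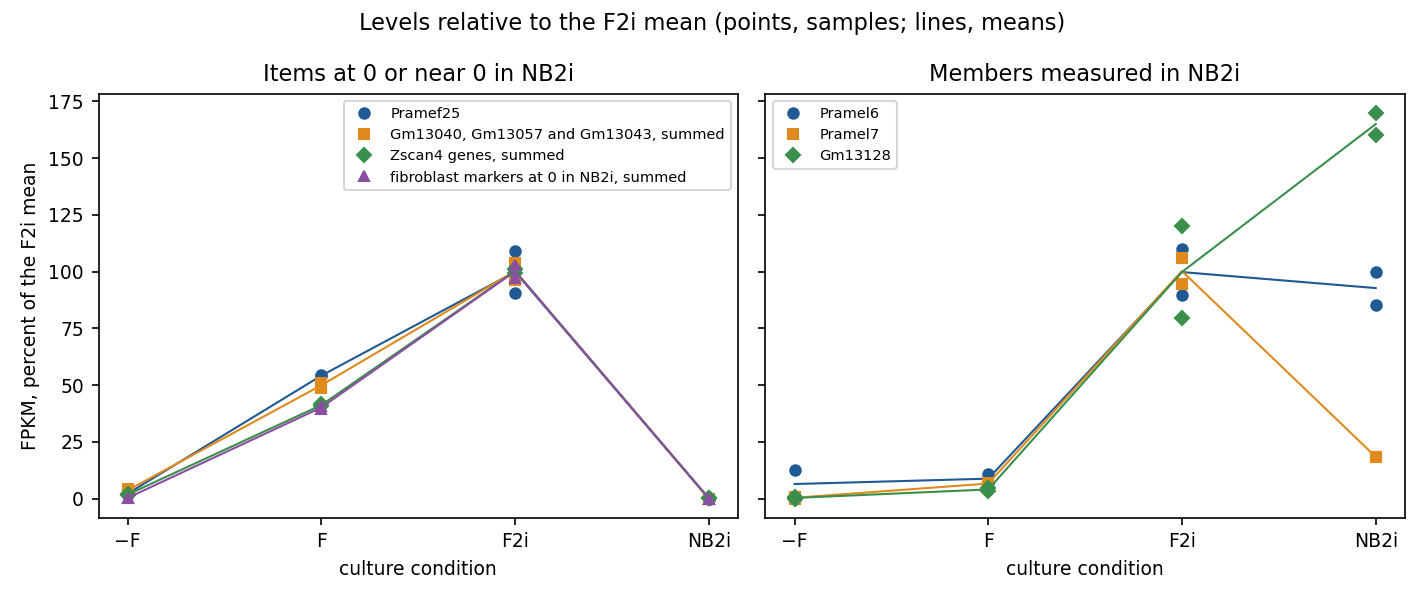
FPKM as a percent of the F2i mean (y axis, linear) by culture condition (x axis), with points for samples and lines through the means of 2. On the left, Pramef25, the sum of Gm13040, Gm13057 and Gm13043, the Zscan4 sum and the sum of 4 fibroblast markers are at or near 0 in −F and NB2i, and on the right Gm13128 reaches 160 and 170 in NB2i while Pramel7 is at 18.3 and 18.5.

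The genes most like each member were ranked by Pearson's r of log2(FPKM + 1) over the 8 samples, among 12937 genes that reached 1 FPKM in 2 or more samples. With 4 conditions of 2 samples, an r near 1 says that the 4 means have the same pattern, and it carries no p here. Among the genes most like Pramel7 were Dio3 (r = 0.9946), a thyroid hormone deiodinase, and Btrc (0.9939), the substrate receptor of another ubiquitin ligase. Dio3 rose from 1.22 and 1.15 FPKM in F to 15.98 and 17.53 in F2i and stood at 2.3 and 1.9 in NB2i. Pramel6 was most like Nid2 (0.9937), a basement membrane protein, Pfkp (0.9937), a glycolytic enzyme, and Slc27a4 (0.9907), a fatty acid transporter. Since r leaves out the size of a change, genes that moved by a smaller fold than a member also rank high. Nid2 stood at 46.3 and 49.85 FPKM in −F and at 89.36 and 90.96 in F2i, and Btrc at 6.72 and 6.48 and at 11.9 and 11.81. Gm13128 was most like Mppe1 (0.9963), Bst1 (0.9962) and Lrig2 (0.9959), and all 3 were highest in NB2i.

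Pramef25 was most like Lox (0.9978), a collagen crosslinking enzyme, Postn (0.9976), a matrix protein of fibroblasts, and Sdpr (0.9976), a caveolar protein. Gm13040 and Gm13057 were most like each other (1.0000), then Grem1 (0.9982), a BMP antagonist, and P4ha3 (0.9979), a collagen hydroxylase. Postn stood at 17.48 and 18.83 FPKM in F, 55.03 and 52.71 in F2i and 0 in NB2i, and Lox at 18.8 and 21.15, 79.91 and 76.31, and 0.01 and 0. Both genes were thus near 0 in NB2i, where Pramef25 was at 0.

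Across the family, calls were made over all 15287 genes tested with edgeR's quasi-likelihood test, and a called gene differed at least 2-fold with its Benjamini-Hochberg adjusted p below 0.05. In F against −F, 5.59% of all genes were called higher and 1.65% lower. Of the 12 other family genes tested, 8 were called higher (7 by DESeq2) and 0 lower, where 1 was lower at an unadjusted p under 0.05 and 0 by DESeq2. The median log2 difference of the 12 was 3.81, against 0.00 over all genes. The 6 members are not counted in these calls, because they were picked with these values known. Among the 12, however, Gm13043 and BC080695 share 99.4% and 49.4% of their windows with Gm13040, so their counts are not independent of the members. With near-identical genes summed to 1 row each and sums that hold a member left out, 7 were called higher in F against −F and 5 in F2i against F. By the same summing, 8 were called lower in NB2i against F2i and 4 in NB2i against −F. A gene that is expressed only with feeders passes the filter only by being high there, and the 14 family genes that did not pass are not covered by these counts.

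In F2i against F, 6.44% of all genes were called higher and 7% lower. Of the 12 others, 7 were called higher (4 by DESeq2, and 4 without F2i replicate 1) and 0 lower, with 0 lower also at an unadjusted p under 0.05 and by DESeq2. Their median difference was 1.04 against −0.003 over all genes.

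In NB2i against F2i, 6.01% of all genes were called higher and 13.3% lower. Of the 12 others, 10 were called lower by edgeR and by DESeq2 and 0 higher, where 1 was higher at an unadjusted p under 0.05 and 0 by DESeq2. Their median difference was −4.56 with genes without reads set at the floor. Of all 32 family genes, 21 were listed in neither NB2i sample and 13 in neither −F sample, and 24 had at least 3 counts in both replicates of F2i, against 18 in F, 9 in −F and 7 in NB2i.

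In NB2i against −F, 11.1% of all genes were called higher and 16.1% lower. Of the 12 others, 6 were called lower by edgeR and by DESeq2 and 0 higher, where 1 was higher at an unadjusted p under 0.05 and 0 by DESeq2. Their median difference was −0.82 with genes without reads at the floor. Of these 6, all but Pramel1 were at 0 in NB2i and had at most 20.59 counts in a −F sample, so they rest on few reads.

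**Figure D4:**
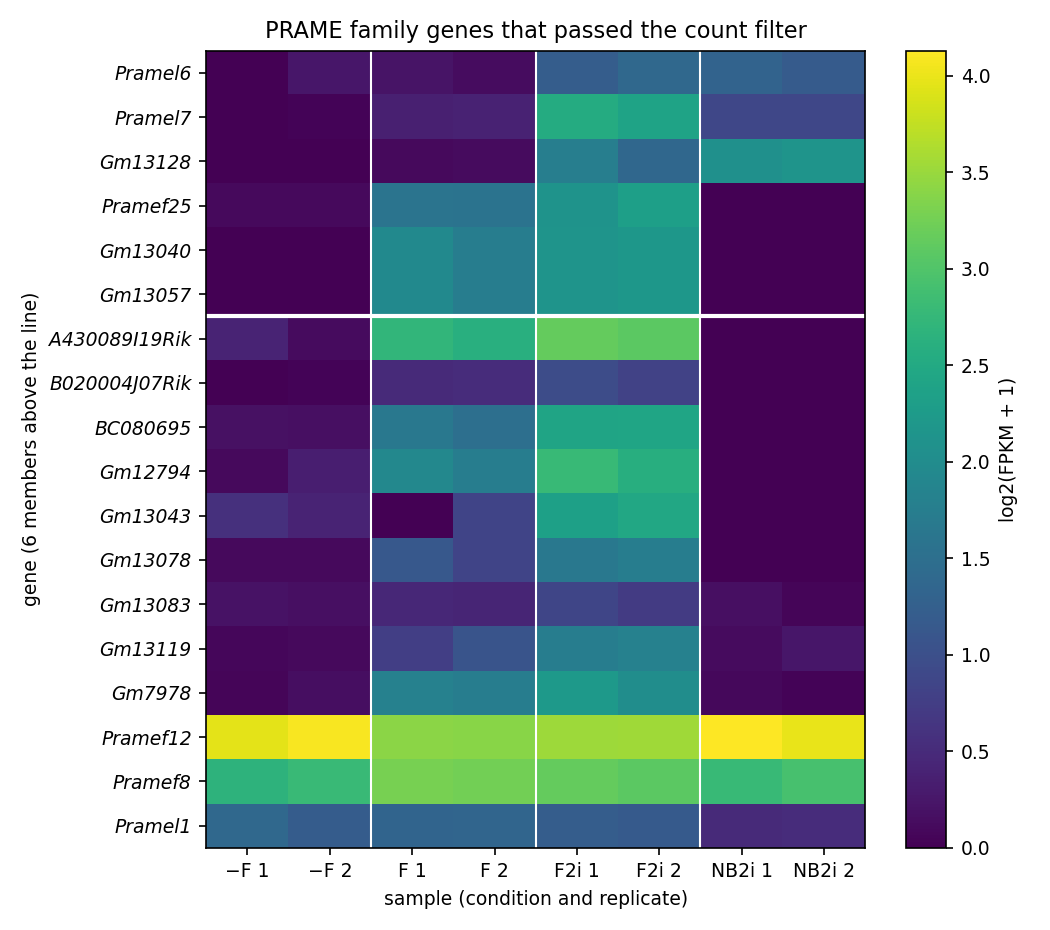
Heat map of log2(FPKM + 1) (colour) for the 18 PRAME family genes that passed the count filter (rows, the 6 members above the line) in each of the 8 samples (columns). The array copies such as A430089I19Rik and Gm12794 are bright in F and F2i and at 0 in NB2i, Pramef12 and Pramef8 are bright in all samples, and Pramel6, Pramel7 and Gm13128 have at least 0.83 FPKM in every F2i and NB2i sample and at most 0.31 in every −F and F sample.

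A430089I19Rik, on chromosome 5 at 94302519 to 94306796, had 12.55 and 3.29 counts in −F, 209.11 and 192.6 in F, 295.22 and 285.2 in F2i and 0 in NB2i. F was above −F by 4.66 on the log2 scale (SE 0.25, edgeR Benjamini-Hochberg adjusted p = 6.4e-12), and F2i was above F by 0.58 (SE 0.13), short of the fold threshold. Gm7978 on the same chromosome followed it, at 80.89 and 77.4 counts in F and 118.78 and 98.8 in F2i against 2 and 1 in NB2i. Of the windows of A430089I19Rik 97.1% and of those of Gm7978 100% occur in other genes, so the values of both are uncertain.

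On chromosome 4, Gm12794 rose from 2.21 and 8 counts in −F to 82.45 and 70.02 in F, a log2 difference of 3.92 (SE 0.35, edgeR Benjamini-Hochberg adjusted p = 1.9e-08), and to 171.51 and 146.61 in F2i. BC080695 rose likewise from 5.84 and 5.79 to 91.12 and 79.78 and then 183.16 and 187.47. Both were at 0 in NB2i, at least 53.7-fold and 62.6-fold lower than in F2i. Gm13078 had 3 and 3 counts in −F, 51.26 and 34.27 in F, 91.89 and 102.21 in F2i and 0 in NB2i.

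Gm13119 was the one of the named copies with more than 3 counts left in NB2i, 4 and 8, where F2i had 98.27 and 106.83, and it fell by 4.09 on the log2 scale (SE 0.32, edgeR Benjamini-Hochberg adjusted p = 2.6e-10). Gm13043 alone did not differ between F and −F (−0.06, SE 0.63, adjusted p = 0.95 with edgeR and Benjamini-Hochberg), although the sum of the 3 copies was 14.2-fold higher in F. Read singly, these near-identical genes thus give differences that depend on how shared reads were divided.

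Pramel1, the first gene of the chromosome 4 stretch and free of windows shared with other genes, went otherwise. It had 81 and 65 counts in −F, 75 and 78 in F, 65 and 63 in F2i and 20 and 22 in NB2i. In NB2i it fell by 1.74 on the log2 scale against −F (SE 0.23, edgeR Benjamini-Hochberg adjusted p = 5.6e-07), and it fell by 1.62 against F2i (SE 0.23), while F differed from −F by 0.09 (SE 0.17) and F2i from F by −0.21 (SE 0.18).

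Pramef8 and Pramef12, named after their values were seen, had the most counts of the family and no windows shared with other genes. Pramef8 had 431 and 474 counts in −F, 696 and 682 in F, 622 and 599 in F2i and 478 and 528 in NB2i. Pramef12 had 732 and 813 in −F, 481 and 485 in F, 522 and 534 in F2i and 843 and 758 in NB2i. Neither reached a fold change of 2 in any comparison, and F differed from −F in opposite directions, with a log2 difference of 0.63 (SE 0.074) for Pramef8 and −0.65 (SE 0.074) for Pramef12.

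The whole family of 32 genes summed to 1302.83 and 1421.07 counts in −F, 2199.39 and 2147.63 in F, 3202.49 and 3177.95 in F2i and 1551.79 and 1514.54 in NB2i. The family total thus peaked in F2i, 1.52-fold above F and 2.11-fold above NB2i, while NB2i and −F lay within 1.17-fold of each other. In NB2i and −F most of the total came from Pramef12, with 50.05 to 57.21% of family counts, and Pramef8, with 30.8 to 34.86%. Of 21 2C-like genes looked for, 20 were listed and 16 tested, and 16 were called higher in F against −F, 8 higher in F2i against F, 15 lower in NB2i against F2i, and 9 lower and 1 higher in NB2i against −F. Of the 14 fibroblast markers, all tested, 13 were called higher in F against −F, 4 higher in F2i against F, 13 lower in NB2i against F2i, and 7 lower and 3 higher in NB2i against −F. Over all genes, 5.59% were called higher in F against −F and 6.44% higher in F2i against F. In NB2i, 13.3% were called lower against F2i, and 16.1% lower and 11.1% higher against −F. Both lists were chosen with earlier results known, and a gene expressed only with feeders passes the filter only by being high there. The part of either list in the family counts was not tested.

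Beside Pramel7, a list of 10 genes was looked at, with the CUL2 ligase and its adaptors, UHRF1, the DNA methyltransferases and Stat3. Uhrf1, the protein of which is the known target of the Pramel7 ligase, had RNA at 121.1 ± 4.07 FPKM in −F, 132.1 ± 1.68 in F, 173.7 ± 4.2 in F2i and 233.1 ± 4.89 in NB2i. Its RNA thus rose in the order of the conditions, while Pramel7 RNA was highest in F2i. NB2i was above −F by 1.02 on the log2 scale (SE 0.043, edgeR Benjamini-Hochberg adjusted p = 3.4e-15), a fold just past 2 that DESeq2 put just under 2. Protein levels were not measured by these data.

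The ligase genes moved little. Cul2, the scaffold, lay between 25.82 ± 1.37 FPKM in −F and 33.42 ± 0.559 in F2i, and the adaptors Tceb1, Tceb2 and the RING subunit Rbx1 stayed under a fold change of 2 in each of the 4 comparisons. Dnmt1, the maintenance methyltransferase, was 68.05 ± 4.08 FPKM in −F and 86.3 ± 2.26 in NB2i. Stat3, the transducer of LIF, was 18.87 ± 0.148 in −F and 35.72 ± 0.523 in NB2i, a log2 difference of 0.99 (SE 0.044).

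The de novo methyltransferases Dnmt3a and Dnmt3b and their cofactor Dnmt3l gave all the lower calls of the list. Dnmt3b fell by 1.12 on the log2 scale (SE 0.04) in F against −F, the only gene of the 10 called there. Over all genes 5.59% were called higher there and 1.65% lower. Of the 10, 0 were called higher by edgeR or DESeq2, and at an unadjusted p under 0.05 4 were higher and 2 lower. Dnmt3l fell by 0.71 (SE 0.039) in F against −F, short of the fold threshold. With 2i on feeders Dnmt3a fell by 2.35 (SE 0.047), Dnmt3b by 1.85 (SE 0.045) and Dnmt3l by 1.02 (SE 0.042), each with an edgeR Benjamini-Hochberg adjusted p of at most 8.5e-15. From F2i to NB2i, Dnmt3a fell by 1.37 (SE 0.058) and Dnmt3l by 3.24 (SE 0.059), and Dnmt3b differed by −0.04 (SE 0.049). Thus F2i, where Pramel7 was highest, was not the condition with the lowest Dnmt3a or Dnmt3l.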

How the data were processed

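Poly-A RNA of 8 samples was sequenced by the authors on a BGISEQ-500 (single end, 50 bases). Bowtie2 alignment to mm10 and RSEM quantification were used, with tool versions not given in the sources used here. Each deposited file holds 2 measures per gene: an expected count, left by the authors without normalization (29.8% of values were not whole), and an FPKM, scaled by the authors for length and depth. Only genes above 0 are listed per sample, and a gene not listed was set to 0.

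The 6 members and all gene lists were chosen with earlier results of these data known. Other family members were rows whose symbol begins with Prame or is Oog1 to Oog4 (13 with the members), whose gene ID maps to such a symbol in RefSeq (15), or, because the RefSeq table holds no descriptions, whose deposited description names PRAME (4: Gm13040, Gm13057, Gm13043 and Gm13102). Other genes named are family genes called in a comparison whose higher group averaged 1 FPKM or more, all 10 CUL2 and UHRF1 list genes, and the 3 genes most like each member, of which 1 is not reported here.

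After rounding, edgeR 4.0.16 (R 4.3.3; glmQLFit, glmQLFTest, TMM) tested the expected counts in 1 fit of all 8 samples with condition as factor and no block. Genes needed at least 10 counts in at least 2 samples, and p-values were adjusted over 15287 genes by Benjamini and Hochberg's method. Called genes differed at least 2-fold with an adjusted p below 0.05. The biological coefficient of variation was 3.25%, and p-values rest on the model, since the smallest exact permutation p of 2 against 2 samples is 0.3333. For groups at 0, folds are bounds against a floor of 3 counts per library, and for groups of 1 to 3 counts ratios carry an exact 95% interval. These cover counting error only. Replicates gave a chi-square per degree of freedom of 1.81 to 3.56, above sampling noise, and were kept apart. The design text calls them biological duplicates. Near-identical genes shared at least 50% of windows of 50 bases, counted in GENCODE M21 transcripts. The library kit was not stated to keep strand. The scripts were checked on simulated counts. Alternatives were DESeq2 1.42.0, its size factors, no filter, a stricter filter, a replicate block, each replicate left out, and limma 3.58.1 on log2 values of FPKM with a pseudocount of 1 or of 0.1.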

Additional observations from a re-analysis of the deposited data

How the results depend on the processing

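Counts of the other family genes called higher in F against −F were 4 with limma on log2(FPKM + 1) in place of 8. In F2i against F they were 4 with DESeq2, 1 with limma on log2(FPKM + 1) and 4 to 7 with each replicate left out. In NB2i against −F they were 1 higher with no filter on low counts and 0 lower with limma on log2(FPKM + 1), a scale that shrinks differences of genes at low FPKM. In F against −F, 0 to 1 were lower with each replicate left out, the 1 being Gm13043 without F replicate 2. Of the CUL2 and UHRF1 list, the 1 gene higher in NB2i against −F became 0 with DESeq2, with its size factors and with limma on both scales, and 0 to 2 with each replicate left out, 0 without −F replicate 1 and 2 without NB2i replicate 2. With each replicate left out, Pramel6 ranged from −0.55 to 5.03 in F against −F, negative without −F replicate 1, and from −0.24 to 0.057 in NB2i against F2i, with 0.057 and 0.015 without F2i replicate 2 and NB2i replicate 2. The sum with BC080695 gave 2.49 in F against −F and 0.95 in F2i against F with limma on log2(FPKM + 1). Restricted to Gm13040, Gm13057 and Gm13043, its bounds were −7.33 in NB2i against F2i and −2.47 in NB2i against −F, since fewer reads enter. The sum of Gm13128 and Pramef17 gave 1.35 to 4.34 in F against −F and 5.36 to 7.98 in NB2i against −F with each replicate left out, the lowest without −F replicate 2, and 1.49 in F2i against F with limma on log2(FPKM + 1). Where no construction is named, the cause was not tested. Of the values for group counts and sums under alternatives, 238 stayed near the main value and 22 moved further. Nearness was judged for counts by a limit on their ratio to the main count, and for sums by the spread of replicates. The limit was loose: 15 other family genes lower in NB2i against F2i with no filter, in place of 10, counted as near. Counts of 0 under both the main test and an alternative also counted as near.

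Same-numbered samples did not deviate together (mean r −0.04, from −0.19 to 0.09 over 6 pairs of conditions), so they share only a number. With the replicate block, 8, 7 and 0 other family genes were higher and 0, 0 and 10 lower in F against −F, F2i against F and NB2i against F2i, and 6 lower in NB2i against −F, the same counts as without it. The sum restricted to 3 copies, the family without genes found by description and the summing of near-identical rows were chosen after seeing the data. Depth limits Pramel6, Pramel7 and Gm13128 in −F and F, where single libraries held 0 to 12 counts.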
